A study of Mus musculus with 10 samples.

Results

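The genes examined were 10 amino acid transporter genes of the kidney tubule, chosen by symbol for their known roles on the apical and basolateral sides of tubule cells: Slc3a1, Slc7a9, Slc7a13, Slc6a19, Slc6a18, Slc1a1, Slc3a2, Slc7a5, Slc7a7 and Slc7a8. Earlier results of these data were known when they were chosen, so the share of them called is a description and not a test. Of the 10 genes, 9 were among the 13299 genes of the expression table and all 9 passed a filter on low values, which 13236 genes passed in all. Slc7a5 was not analysed here. Their transcripts were counted by 3′ mRNA sequencing of whole kidney from 5 Rragc S74N/+ mice and 5 Rragc +/+ mice, all labelled old and aged 1.5 years. Rragc encodes RagC, a small GTPase that works with RagA to bring the growth kinase complex mTORC1 to the lysosome when nutrients are plentiful. In Rragc S74N/+ mice the coding change sits in 1 allele of the endogenous gene, introduced with CRISPR-Cas9 and a repair oligonucleotide, so that RagC is altered in every cell type and the other allele is wild type. Rragc +/+ mice carried no engineered allele. The comparison asked how transport genes differ in the old kidney when RagC passes on a slightly stronger nutrient signal.

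The proximal tubule takes back almost all amino acids filtered by the glomerulus. Apical transporters bring them from the filtrate into the cell, and basolateral transporters and exchangers pass them on to the blood. Several work as a heavy chain joined to a light chain by a disulfide bond: the heavy chain rBAT (Slc3a1) carries the apical light chains b0,+AT (Slc7a9) and AGT1 (Slc7a13), and the heavy chain 4F2hc (Slc3a2) carries the light chains LAT1 (Slc7a5), y+LAT1 (Slc7a7) and LAT2 (Slc7a8). Amino acids delivered to the cell and to the lysosome are the signal that the Rag GTPases read.

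RefSeq promoter windows, of 250 bases before and 50 bases after a transcript start, were matched for 7 of the 10 genes, in 12 windows in all. The stretches below belong to the 4 genes whose transcripts were lower in Rragc S74N/+ kidneys and to Slc3a1, the partner of one of them, and are shown so that genes that moved together can be read side by side. They come from build GRCm38.p6, whereas the reads were aligned to GRCm39. Each is the strand of the gene, 5′ to 3′, upstream of the first RefSeq start and free of annotated exons of that gene. Capitals mark the letters CAAAGTCCA, a site of the tubule and liver factor HNF4A, which were found in Slc3a1 alone, from -39 to -31 of its start.

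Slc6a19, chr13:73692637-73692736, minus strand, -100 to -1: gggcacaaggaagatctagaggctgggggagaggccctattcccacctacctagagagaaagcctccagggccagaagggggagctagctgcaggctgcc
Slc7a9, chr7:35448937-35449036, plus strand, -155 to -56: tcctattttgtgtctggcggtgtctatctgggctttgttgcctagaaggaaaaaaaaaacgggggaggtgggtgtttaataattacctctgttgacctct
Slc3a1, chr17:85028247-85028346, plus strand, -100 to -1: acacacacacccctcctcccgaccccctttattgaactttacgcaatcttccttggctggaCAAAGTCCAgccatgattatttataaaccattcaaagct
Slc3a2, chr19:8713898-8713960, minus strand, -63 to -1: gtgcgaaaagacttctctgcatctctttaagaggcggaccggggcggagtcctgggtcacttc
Slc7a8, chr14:54781947-54782046, minus strand, -160 to -61: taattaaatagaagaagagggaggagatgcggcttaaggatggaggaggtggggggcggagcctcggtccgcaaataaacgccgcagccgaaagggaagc

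Each motif was searched on both strands in the whole windows. CAAAGTCCA was in 1 of the 12 windows, against 0.475% of all 32851 promoter windows. GTTAATNAT, a site of HNF1, and CACGTG, the E-box read by TFEB and MYC, were in 0 of the 12, against 0.801% and 7.15% of all windows. TGATGNAA, an element of ATF4 and C/EBP, was in 2 windows, against 3.97% of all, and both were overlapping windows of Slc7a7. A match is a description of letters, not a bound site, and none of the 4 genes that fell had a match to any of these motifs in its windows.

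Of the 9 transporters, 4 were lower in Rragc S74N/+ kidneys at an adjusted p under 0.05 (limma on log2 of the normalized count plus 1, adjusted over all 13236 genes), beside 2.58% of all tested genes called lower. They were Slc3a2, Slc7a8, Slc6a19 and Slc7a9, which fell to between 31.7% and 51.4% of the mean of Rragc +/+ kidneys. The number called higher was 0 of 9, beside 3.45% of all genes, and it was also 0 at an unadjusted p under 0.05, with edgeR and with DESeq2. With Rragc S74N/+ replicate 1 left out, 2 of the 9 were higher at an unadjusted p under 0.05 (limma). With libraries scaled to equal totals or to proximal tubule markers, 1 was. For each of the 4 genes all 5 Rragc S74N/+ kidneys lay below the lowest Rragc +/+ kidney, a separation that 4.01% of all genes showed in this direction. The 4 that fell included apical and basolateral transporters and a heavy chain, and the other 5 included members of each of these classes too. The median log2 fold change of the 9 was -0.54, or -0.20 with Rragc S74N/+ replicate 1 left out, and that of all tested genes was -0.01.

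Depth in the 8 libraries whose whole reads could be recovered was 4488493 to 5797251 reads, and the sum of normalized counts ran from 4473981 to 5087152 over the 10 libraries. At these levels a transporter had at least 55.0 normalized counts in every library. Libraries with 3′ tags give counts that do not grow with transcript length, so the levels of different genes can be set side by side as tags per gene. In whole tissue, fewer cells of a type and less RNA per cell cannot be told apart. Rragc S74N/+ replicate 1 stood apart from its group, being the lowest Rragc S74N/+ library for 8 of the 9 transporters, and it also had the lowest mean log2 level of 10 proximal tubule markers, at -0.33 relative to the mean of all libraries. The fold changes of the 4 transporters called lower and the shifts within each mouse are given with and without it, and other results where stated. The labels name no batch, and the sexes of the mice are not stated in them, but 4 Y-linked transcripts summed to 368.5 to 478.6 normalized counts in Rragc +/+ and 459 to 505 in Rragc S74N/+ libraries.

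**Figure D1:**
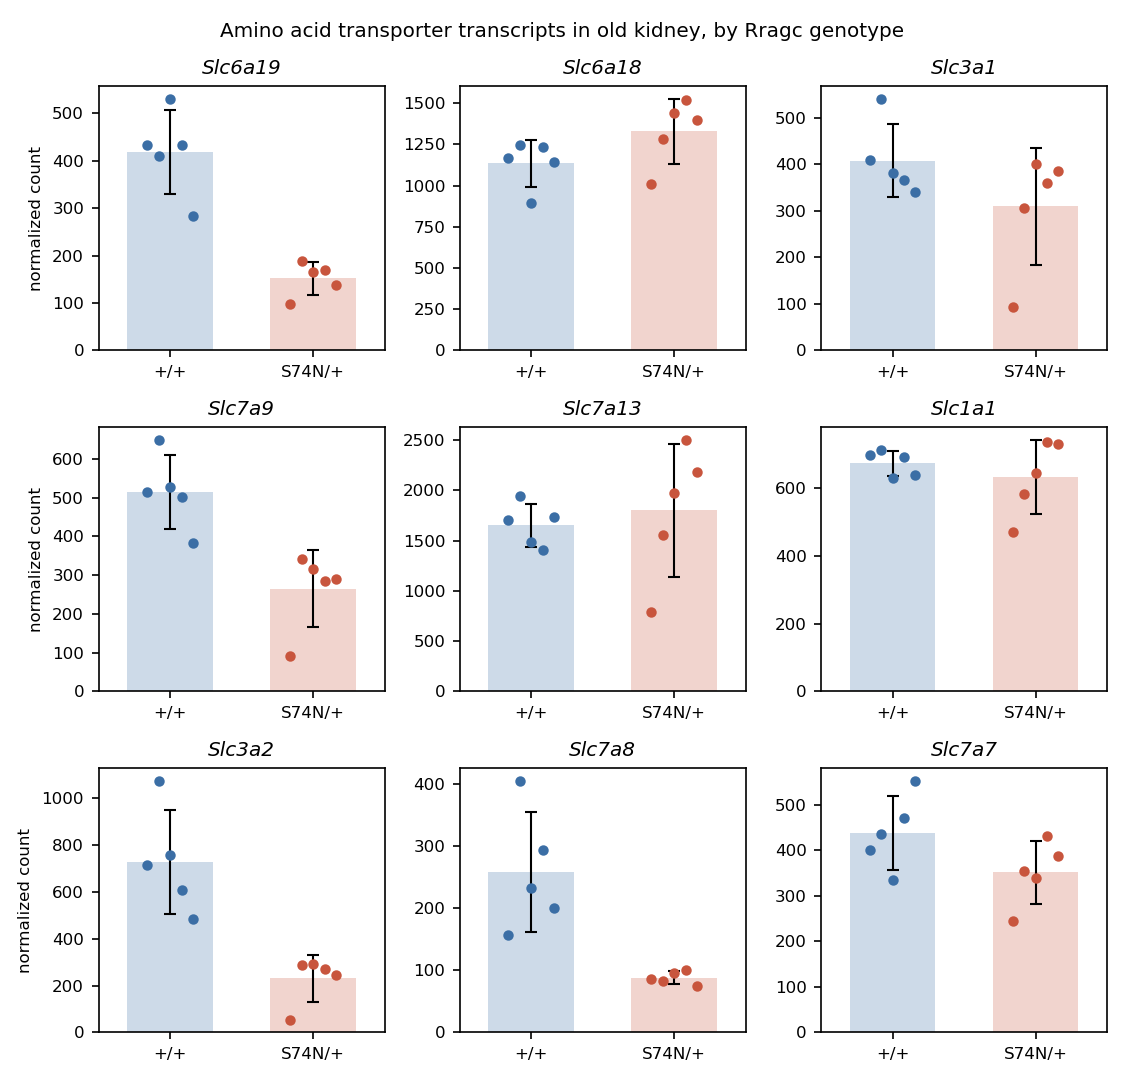
Normalized count of the 9 transporters (vertical axes, linear from 0) in 5 Rragc +/+ (blue) and 5 Rragc S74N/+ (red) kidneys, with bars at the mean, error bars of 1 s.d. and points for single mice in order of replicate number. The red points lie wholly below the blue points for Slc6a19, Slc7a9, Slc3a2 and Slc7a8, and the leftmost red point, Rragc S74N/+ replicate 1, is the lowest of its group everywhere except Slc7a8.

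Slc6a19 encodes B0AT1, the main apical carrier of neutral amino acids in the early proximal tubule. Its normalized count in Rragc +/+ replicates 1 to 5 was 434, 409, 531, 434 and 283, and in Rragc S74N/+ replicates 1 to 5 it was 97.9, 188, 165, 169 and 139. The groups were far apart, with a gap between 188 in the highest Rragc S74N/+ kidney and 283 in the lowest Rragc +/+ kidney. The mean was 418 ± 89.0 (s.d., n = 5) against 152 ± 34.8 (s.d., n = 5). The log2 fold change was -1.46 ± 0.19 (s.e.; adjusted p by limma = 0.000433), and an exact two-sided permutation test of the normalized counts over all allocations of the mice gave p = 0.00794, the smallest it can give. Without Rragc S74N/+ replicate 1 the change was -1.31 (adjusted p = 1.8e-05), and with any single library left out the adjusted p stayed at or under 0.00263.

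Slc6a18 encodes B0AT3, a relative of B0AT1 that works further along the tubule, and its gene neighbours Slc6a19 on the chromosome. Its transcript did not pass the threshold, with 1136 ± 143 normalized counts (s.d., n = 5) for Rragc +/+ and 1329 ± 199 (s.d., n = 5) in Rragc S74N/+ kidneys. The lowest, median and highest values were 894, 1167 and 1247 in Rragc +/+ and 1008, 1397 and 1521 in Rragc S74N/+. The log2 fold change was 0.22 ± 0.13 (s.e., 95% interval -0.05 to 0.50; limma, adjusted p = 0.297). It was 0.32 (limma, adjusted p = 0.0828) with Rragc S74N/+ replicate 1 left out. Both carriers need a partner protein to reach the membrane, which in the kidney is collectrin (Cltrn). Cltrn had 3969 ± 564 normalized counts (s.d., n = 5) for Rragc +/+ and 4069.9 ± 609 (s.d., n = 5) in Rragc S74N/+ kidneys, a log2 fold change of 0.04 ± 0.13 (s.e.; adjusted p by limma = 0.895). The partner did not pass the threshold, while Slc6a19 did.

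Slc7a9 encodes b0,+AT, the light chain that, with rBAT, takes up cystine and dibasic amino acids, and mutations in either chain cause cystinuria. The normalized count of Slc7a9 was 516, 650.2, 528, 502 and 382 in Rragc +/+ replicates 1 to 5, and 92.3, 342, 316, 284 and 290.5 in Rragc S74N/+ replicates 1 to 5. Rragc S74N/+ replicate 1 was far below the other 4, which alone still lay below every Rragc +/+ kidney. Means were 516 ± 95.2 and 265 ± 99.2 (s.d., n = 5 each), with a log2 fold change of -1.07 ± 0.28 (s.e.; adjusted p by limma = 0.0335; exact permutation p = 0.00794). This call was the least secure of the 4. It held in 4 of the 10 fits with a library left out, and the adjusted p rose to 0.0779 when Rragc +/+ replicate 1 was dropped, 0.10 for replicate 2, 0.0613 for replicate 3, 0.0681 for replicate 4, 0.0518 for Rragc S74N/+ replicate 4 and 0.0573 for Rragc S74N/+ replicate 5. Without Rragc S74N/+ replicate 1 the change was smaller, -0.72, and the adjusted p was 0.0023.

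Slc3a1 encodes rBAT itself. Its normalized count was 409, 541, 380.1, 366 and 341 in Rragc +/+ replicates 1 to 5, and 94.2, 306, 401, 361 and 386 in Rragc S74N/+ replicates 1 to 5. The groups overlapped, with 3 of the 5 Rragc S74N/+ kidneys above the lowest Rragc +/+ kidney. The log2 fold change of -0.54 ± 0.30 (s.e., 95% interval -1.18 to 0.11) did not pass the threshold (adjusted p by limma = 0.280), and it was -0.15 without Rragc S74N/+ replicate 1. The interval includes a fall as large as that of Slc7a9.

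Slc7a13 encodes AGT1, which pairs with rBAT in the last, straight segment of the proximal tubule and carries cystine, aspartate and glutamate. It had the highest level of the 9 in both groups, with 1654 ± 213 normalized counts (s.d., n = 5) for Rragc +/+ and 1801 ± 663 (s.d., n = 5) in Rragc S74N/+ kidneys. Values ran from 1409 to 1942 in Rragc +/+ and over a wider span, from 788 in replicate 1 to 2505 in replicate 4, in Rragc S74N/+. The log2 fold change was 0.03 ± 0.23 (s.e., 95% interval -0.47 to 0.52; adjusted p by limma = 0.955). It was 0.30 (adjusted p = 0.162) once Rragc S74N/+ replicate 1 was left out. Slc1a1 encodes EAAT3, the apical glutamate and aspartate carrier. Its level of 675 ± 36.8 normalized counts (s.d., n = 5) for Rragc +/+ and 634 ± 111 (s.d., n = 5) in Rragc S74N/+ kidneys gave a log2 fold change of -0.11 ± 0.13 (s.e., 95% interval -0.37 to 0.16; limma, adjusted p = 0.634). The acidic amino acid carriers thus gave no call, with groups that overlapped for both genes.

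On the basolateral side, Slc3a2 had the lowest log2 fold change of the 9 with all mice, a place taken by Slc7a8 when Rragc S74N/+ replicate 1 was left out. Slc3a2 encodes 4F2hc, the heavy chain that brings its light chains to the membrane, and is expressed in many cell types besides the tubule. The normalized count of Slc3a2 was 715, 1075, 755, 608 and 484 in Rragc +/+ replicates 1 to 5, and 55.0, 288, 294, 272 and 245 in Rragc S74N/+ replicates 1 to 5. No Rragc S74N/+ kidney reached the lowest Rragc +/+ value, and replicate 1 was far below its group. The mean was 727 ± 221 against 231 ± 100.04 (s.d., n = 5 each), a log2 fold change of -1.81 ± 0.36 (s.e.; adjusted p by limma = 0.00992; exact permutation p = 0.00794). Without Rragc S74N/+ replicate 1 the change was -1.35 with an adjusted p of 2.56e-05. The call held with any library left out, and was lost without the variance trend of limma (adjusted p = 0.0525).

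Slc7a8 encodes LAT2, a basolateral exchanger of neutral amino acids that needs 4F2hc. Its normalized count was 158, 406, 232, 294 and 200.0 in Rragc +/+ replicates 1 to 5, and 86.7, 83.4, 94.98, 101 and 74.8 in Rragc S74N/+ replicates 1 to 5. The Rragc S74N/+ kidneys lay close together, and replicate 1 was not set apart from them, while the Rragc +/+ kidneys were spread more widely. The mean was 258 ± 96.5 against 88.1 ± 10.1 (s.d., n = 5 each), a log2 fold change of -1.47 ± 0.21 (s.e.; adjusted p by limma = 0.000867; exact permutation p = 0.00794). The change was -1.47 also without Rragc S74N/+ replicate 1, with an adjusted p of 0.000159.

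Slc7a7 encodes y+LAT1, the other light chain of 4F2hc that was measured, which exports dibasic amino acids and is mutated in lysinuric protein intolerance. The lowest, median and highest normalized counts were 334, 436 and 553 in Rragc +/+ and 245, 355 and 431 in Rragc S74N/+ kidneys, and the groups overlapped. With means of 439 ± 81.3 and 352 ± 69.1 (s.d., n = 5 each), the log2 fold change of -0.32 ± 0.16 (s.e., 95% interval -0.66 to 0.02) did not pass the threshold (adjusted p by limma = 0.216). Its interval does not reach the fall measured for Slc7a8 or Slc3a2.

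The changes reordered the transporters by level. In Rragc +/+ kidneys the order of mean normalized counts was Slc7a13, Slc6a18, Slc3a2, Slc1a1, Slc7a9, Slc7a7, Slc6a19, Slc3a1 and Slc7a8, and Slc7a13 and Slc6a18 were the only neighbours whose ranges did not overlap. In Rragc S74N/+ kidneys the order was Slc7a13, Slc6a18, Slc1a1, Slc7a7, Slc3a1, Slc7a9, Slc3a2, Slc6a19 and Slc7a8. There Slc1a1 was set off from Slc6a18 above it and from Slc7a7 below it, and all other neighbours overlapped. Slc3a2 moved from the third place to the seventh. The summed level of the 9 was 5756 to 7418 normalized counts in Rragc +/+ and 2939 to 6381 in Rragc S74N/+ kidneys, with the 2939 in replicate 1.

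The level of a transporter relative to a partner or relative was then compared within each mouse, as the difference of their log2 values, in 6 comparisons with exact two-sided permutation tests adjusted over the 6. A comparison of Slc7a5 with Slc3a2 had also been planned and had no values. In 5 of the 6 the balance differed between genotypes at an adjusted p under 0.05. These comparisons reuse the values of the transporters tested above, and several genes enter more than 1 of them. Their p-values therefore restate the calls above in part, and they describe the balance without being separate support. Slc6a18 exceeded Slc6a19 by 1.46 ± 0.46 (s.d., n = 5) for Rragc +/+ and by 3.14 ± 0.23 (s.d., n = 5) in Rragc S74N/+ kidneys, a difference of 1.68 ± 0.23 (s.e.; exact permutation p = 0.00794, adjusted p = 0.0119). The difference was 1.63 without Rragc S74N/+ replicate 1. The relation of these apical carriers of neutral amino acids thus shifted toward the later-acting one, and no mouse of one group fell within the other.

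Among the light chains of rBAT, Slc7a9 was above Slc3a1 by 0.34 ± 0.13 (s.d., n = 5) for Rragc +/+ and below it by a log2 difference of -0.19 ± 0.25 (s.d., n = 5) in Rragc S74N/+ kidneys, a shift of -0.53 ± 0.12 (s.e.; exact permutation p = 0.00794, adjusted p = 0.0119). It was -0.57 without Rragc S74N/+ replicate 1. The groups nearly touched, at 0.162 in the lowest Rragc +/+ mouse and 0.159 in the highest Rragc S74N/+ mouse. Slc7a13 relative to Slc7a9 rose from 1.69 ± 0.29 to 2.79 ± 0.39 (s.d., n = 5 each), a shift of 1.10 ± 0.22 (s.e.; exact permutation p = 0.00794, adjusted p = 0.0119). This shift was 1.02 without Rragc S74N/+ replicate 1. Here too the groups nearly touched, at 2.178 in the highest Rragc +/+ mouse and 2.179 in the lowest Rragc S74N/+ mouse. The light chain of the early segments thus fell against both the heavy chain and the light chain of the last segment. Slc7a13 relative to Slc3a1 went from 2.03 ± 0.19 to 2.60 ± 0.32 (s.d., n = 5 each), a shift of 0.57 ± 0.17 (s.e.; exact permutation p = 0.0238, adjusted p = 0.0286), which did not pass without any one of Rragc +/+ replicates 1 to 4 (adjusted p = 0.0571 each). Without Rragc S74N/+ replicate 1 this shift was 0.45.

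Among the light chains of 4F2hc, Slc7a7 was on average below Slc3a2 in Rragc +/+ kidneys, at -0.70 ± 0.61 (s.d., n = 5), and above it in Rragc S74N/+ kidneys, at 0.79 ± 0.78 (s.d., n = 5). The highest Rragc +/+ mouse, at 0.194, was close to the lowest Rragc S74N/+ mouse, at 0.209. The shift of 1.49 ± 0.44 (s.e.; exact permutation p = 0.00794, adjusted p = 0.0119) was 1.15 without Rragc S74N/+ replicate 1. In contrast, Slc7a8 relative to Slc3a2 was -1.52 ± 0.44 in Rragc +/+ and -1.17 ± 1.03 in Rragc S74N/+ kidneys (s.d., n = 5 each), a shift of 0.34 ± 0.50 (s.e.) that did not pass (exact permutation p = 0.675, adjusted p = 0.675) and was -0.11 without Rragc S74N/+ replicate 1. The heavy chain fell relative to y+LAT1, and no shift relative to LAT2 was detectable.

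**Figure D2:**
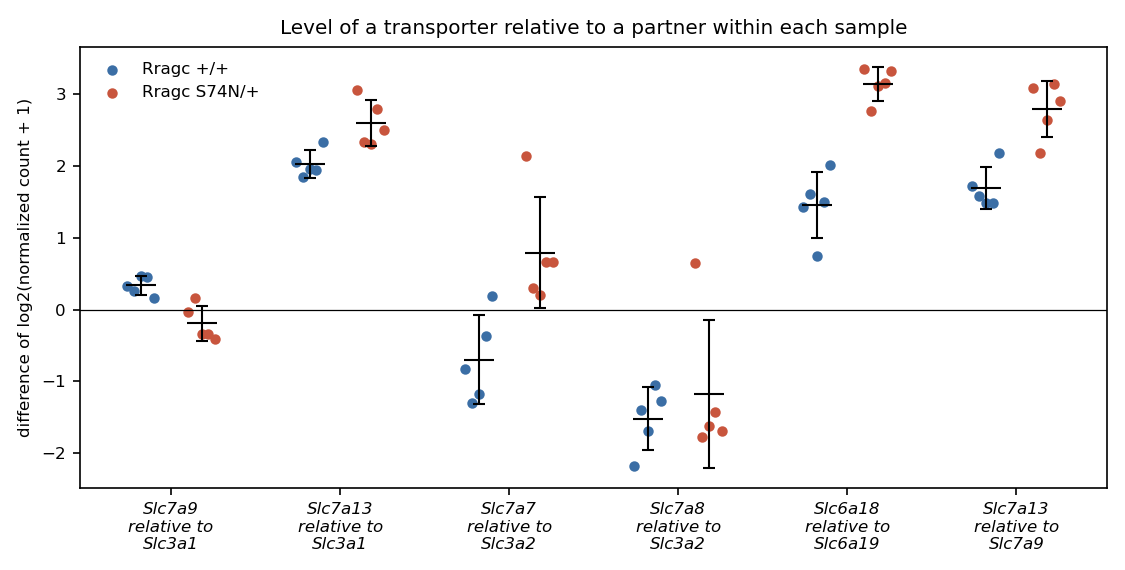
Difference of log2(normalized count + 1) between a transporter and its partner or relative within each mouse (vertical axis, log2 units) for 6 comparisons, with points for the 5 Rragc +/+ (blue) and 5 Rragc S74N/+ (red) mice and lines at the mean ± 1 s.d.. The groups do not overlap for Slc6a18 relative to Slc6a19, where means are 1.46 and 3.14, and they overlap for Slc7a8 relative to Slc3a2, where the highest red point is Rragc S74N/+ replicate 1.

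Other transporters of the pathway were taken from a list by function, also drawn up with earlier results of these data known. Of 36 other plasma membrane amino acid transporters, 25 were in the table and 24 were tested. Slc38a4 did not pass the filter, with 9.59 ± 4.26 normalized counts in Rragc +/+ and 1.18 ± 0.84 in Rragc S74N/+ kidneys (s.d., n = 5 each). Lower calls numbered 2 and higher calls 0 (limma; 5 lower and 2 higher at an unadjusted p under 0.05, and the same counts of calls with edgeR and with DESeq2), so the share called lower was 2 of 24 beside 4 of 9 above. The median log2 fold change was -0.08, and it was 0.00 or 0.03 when libraries were scaled to equal totals or to proximal tubule markers and -0.20 with Rragc S74N/+ replicate 1 left out. The genes called were Slc16a10 and Slc43a2, both uniporters of the basolateral membrane.

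Slc16a10 encodes TAT1, which lets aromatic amino acids leave the cell. Its normalized count was 149, 183, 160.3, 176 and 143 in Rragc +/+ replicates 1 to 5, and 98.8, 76.6, 94.0, 56.0 and 70.0 in Rragc S74N/+ replicates 1 to 5, a log2 fold change of -1.05 ± 0.17 (s.e.; adjusted p by limma = 0.00203). Slc43a2 encodes LAT4, which lets branched-chain amino acids, methionine and phenylalanine leave. Its normalized count was 817, 702, 690.2, 816 and 709 in Rragc +/+ replicates 1 to 5, and 479, 446, 492, 453 and 400.3 in Rragc S74N/+ replicates 1 to 5, a log2 fold change of -0.72 ± 0.10 (s.e.; adjusted p by limma = 0.00118). Neither group of values overlapped with the other for either gene, and Rragc S74N/+ replicate 1 was not the lowest for either.

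All 10 transporters listed for the lysosomal membrane were tested, and 2 were lower and 0 higher (limma; 5 lower and 0 higher at an unadjusted p under 0.05; edgeR and DESeq2 each called 1 lower and 0 higher), with a median log2 fold change of -0.48 (-0.33 with Rragc S74N/+ replicate 1 left out). Mfsd1, a carrier of dipeptides, fell from 792 ± 68.7 to 559 ± 97.6 normalized counts (s.d., n = 5 each), by 0.52 ± 0.13 on the log2 scale (s.e.; adjusted p by limma = 0.0314), with groups that did not overlap. Mfsd12, a carrier of cysteine, fell from 53.5 ± 10.7 to 30.1 ± 7.25 (s.d., n = 5 each), by 0.81 ± 0.22 on the log2 scale (s.e.; adjusted p by limma = 0.0419), with groups that overlapped. Neither call survived scaling to equal library totals or to proximal tubule markers, or the fit without the variance trend, where 0 of 10 were called. Slc38a9, the arginine sensor that reports to the Rag GTPases, had 72.7 and 76.8 normalized counts on average in the 2 groups, a log2 fold change of 0.08 ± 0.19 (s.e.; adjusted p by limma = 0.836). It was named after its values had been seen.

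**Figure D3:**
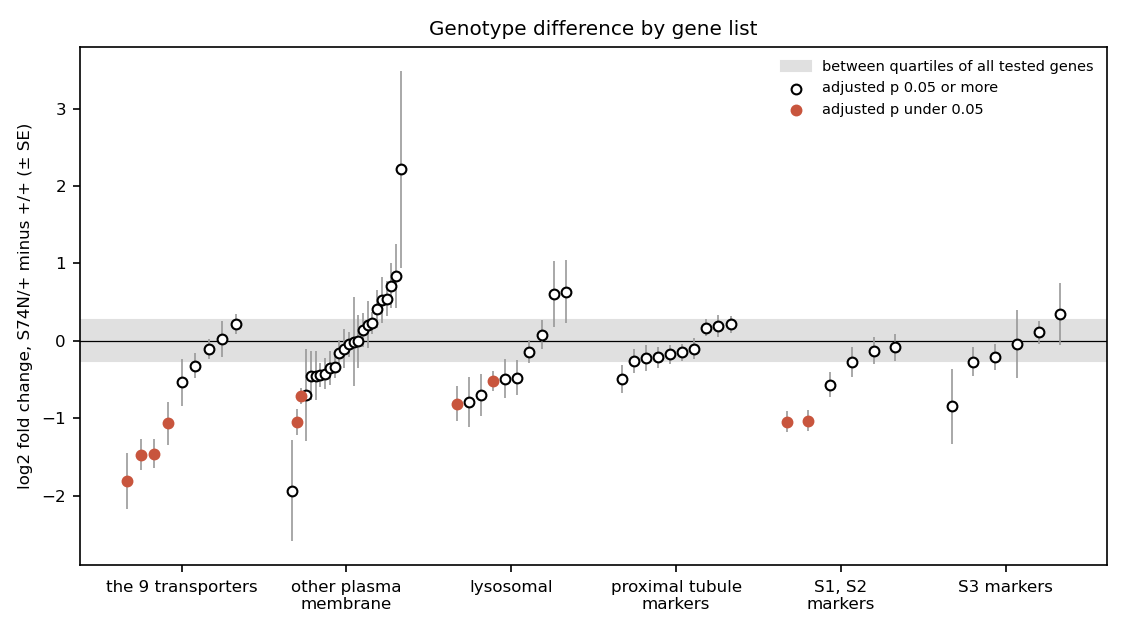
Log2 fold change (Rragc S74N/+ minus Rragc +/+, vertical axis, ± s.e.) of each tested gene of the 9 transporters, 24 other plasma membrane and 10 lysosomal amino acid transporters and 3 lists of proximal tubule markers, sorted within each list, with filled points at an adjusted p under 0.05 and a band over the range between the quartiles of all tested genes. Filled points lie only below 0, and 4 of them are among the 9 transporters.

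Markers of the cells that hold these transporters were read beside them. Of 10 general proximal tubule markers, 0 passed the threshold (limma; 1 lower and 0 higher at an unadjusted p under 0.05; 0 with edgeR and with DESeq2), their median log2 fold change was -0.16 (-0.088 with Rragc S74N/+ replicate 1 left out), and their summed normalized count of 50630 to 65671 in Rragc +/+ overlapped that of 52818 to 63664 in Rragc S74N/+ kidneys. Slc34a1, the phosphate carrier and the most abundant of them, had 18242 ± 2151 and 16084 ± 837 (s.d., n = 5 each; limma, adjusted p = 0.399). Measured relative to the mean log2 level of these 10 markers, the same 4 transporters were called, with changes of -1.71 for Slc3a2, -1.37 for Slc7a8, -1.36 for Slc6a19 and -0.97 for Slc7a9.

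Of 6 markers of the early segments (S1 and S2), 2 were lower and 0 higher (limma; 3 lower and 0 higher at an unadjusted p under 0.05), with a median of -0.42 (-0.31 with Rragc S74N/+ replicate 1 left out) and summed counts of 6906 to 8698 in Rragc +/+ and 4649 to 7719.96 in Rragc S74N/+ kidneys. The genes called, named after their values had been seen, were Slc5a2, the glucose carrier SGLT2, which had 845 ± 48.2 and 415 ± 89.7 normalized counts, and Gatm, an enzyme of creatine synthesis, which had 850 ± 108 and 419 ± 89.9 (s.d., n = 5 each; limma, adjusted p = 0.000476 and 0.000619). The other 4 of the list, Slc2a2 (adjusted p by limma = 0.0554), Slc5a12, Slc22a6 and Slc22a8, did not pass. Of 6 markers of the last segment (S3), 0 passed (limma, edgeR and DESeq2; 0 also at an unadjusted p under 0.05), with a median of -0.13 and summed counts of 6099 to 8136 and 4168 to 8157. The 4168 was Rragc S74N/+ replicate 1, as was the 4649 of the early segments. With that mouse left out the S3 median was 0.083, and 1 of the 6 was higher at an unadjusted p under 0.05. The part of early-segment cells or of their state in the values of Slc6a19 and Slc7a9 was not tested.

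Markers of other cells moved too, and the genes named here were named after their values had been seen. Of 9 leukocyte markers tested, 3 were higher (Ptprc, Cd74 and Lyz2) and 0 lower. At an unadjusted p under 0.05 (limma) 6 were higher and 0 lower. The macrophage markers Cd68 and Adgre1 did not pass, with log2 fold changes of -0.34 ± 0.36 and 0.18 ± 0.35 (s.e.; limma, adjusted p = 0.598 and 0.791). The summed count of the 9 was 1265 to 1768 in Rragc +/+ and did not overlap that of 2418 to 3184 in Rragc S74N/+ kidneys. Cd74 makes up the largest part of these sums, at 910 ± 171 and 1864 ± 245 normalized counts (s.d., n = 5 each). Of 8 markers of the distal nephron and collecting duct, 4 were lower (Umod, Slc12a3, Calb1 and Slc4a1) and 0 higher, with sums of 14173 to 16847 and 6822 to 11019.5. At an unadjusted p under 0.05 (limma) 4 were lower and 1 higher. The 1 higher was Atp6v1g3, with a log2 fold change of 0.42 ± 0.14 (s.e.), which DESeq2 also called higher. Changes were below 0 for 5 of the 8. Mean counts went from 5806 to 2119 for Umod and from 4056 to 1078 for Slc12a3, which weigh most in the sums. Slc12a1 did not fall, at 3130 ± 503 and 3318 ± 1084 normalized counts (s.d., n = 5 each; limma, adjusted p = 0.909). Of 8 tubule injury markers, 4 were higher (Havcr1, Lcn2, Vcam1 and Cd44) and 0 lower, with sums of 2424 to 2801 and 2066 to 3418. At an unadjusted p under 0.05 (limma) 4 were higher and 1 lower. The 1 lower was Clu, with a log2 fold change of -0.30 ± 0.14 (s.e.). Clu makes up the largest part of these sums, at 1826 ± 151 and 1510 ± 364 normalized counts (s.d., n = 5 each). Of 6 endothelial markers, 0 passed (limma, edgeR and DESeq2; 1 lower and 1 higher at an unadjusted p under 0.05 with limma), with sums of 1408 to 1655 and 1451 to 1993. Without Rragc S74N/+ replicate 1 the unadjusted counts were 1 lower and 0 higher (limma). Of 5 genes with male bias in kidney, 1 was higher with limma (Cyp2j13), and edgeR and DESeq2 each called 2 higher (Acsm3 and Cyp2j13). Their sums were 81567 to 119904 and 89347 to 121734, most of it Kap, at 94161 ± 14920 and 103466 ± 14058 (s.d., n = 5 each). Of 4 genes with female bias 0 passed (limma, edgeR and DESeq2; 0 also at an unadjusted p under 0.05), with sums of 487 to 598 and 311 to 946. With Rragc S74N/+ replicate 1 left out, 1 of these 4 was called higher (Cyp4a14), and 2 were higher at an unadjusted p under 0.05 (limma). No listed gene was at 0 in all libraries. The part of these cells in the transporter values was not tested.

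The sample titles fall into a range of numbers under 200, with 3 mice of each genotype, and one over it, with 2 of each. Slc7a8 changed by -1.47 in both ranges and Slc6a19 by -1.64 and -1.19. Slc3a2 changed by -2.31 and -1.07 and Slc7a9 by -1.38 and -0.61, where the larger falls are those of the range that holds Rragc S74N/+ replicate 1. The fold changes of all 4 were below 0 in each range. In the range under 200 Slc6a19 passed (adjusted p by limma = 0.0242), while Slc7a8 (0.0865), Slc3a2 (0.128) and Slc7a9 (0.163) did not, and in the range over 200 all 4 passed. Over all 13236 genes, 34 were called lower in the range under 200 and 281 in the range over 200. Slc7a7 was at -0.33 and -0.32 and Slc6a18 at 0.17 and 0.30, while Slc3a1 (-0.95 and 0.08), Slc1a1 (-0.27 and 0.14) and Slc7a13 (-0.34 and 0.58) went opposite ways. In the range over 200 the rise of Slc7a13 passed the threshold (adjusted p by limma = 0.00523), beside 336 of 13236 genes called higher there, although with all mice it did not.

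The calls of the transporters were also read with other tools. On the recovered reads of 8 libraries, edgeR (quasi-likelihood) and DESeq2 each called the same 4 lower, beside 2.55% and 4.84% of all genes called lower. The adjusted p with edgeR was 0.00053 for Slc6a19, 0.00258 for Slc7a8, 0.0103 for Slc3a2 and 0.0336 for Slc7a9. Scaling to equal library totals or to proximal tubule markers moved the split of all calls from 457 higher and 341 lower to 718 and 225 or to 536 and 173, and the 4 transporters were lower under each.

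**Figure D4:**
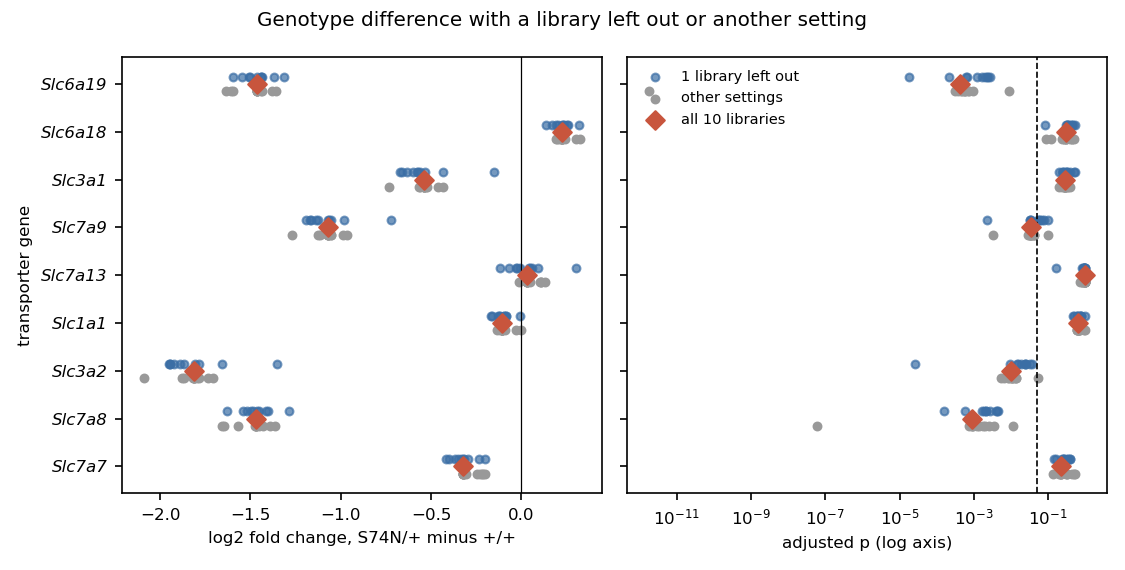
Log2 fold change (left, Rragc S74N/+ minus Rragc +/+) and adjusted p (right, log axis, dashed line at 0.05) of the 9 transporters with all 10 libraries (red diamonds), with each library left out in turn (blue) and under 12 other settings of scaling, filter, pseudocount and test (grey). Slc6a19 and Slc7a8 lie left of the dashed line in every fit shown, Slc7a9 crosses it, and Slc3a1 moves to -0.15 with Rragc S74N/+ replicate 1 left out.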

How the data were processed

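Whole kidneys of 5 Rragc S74N/+ and 5 Rragc +/+ mice were profiled with an oligo-dT primed, stranded 3′ kit (300 ng of RNA). Per the submitters' notes and methods, the authors checked reads with FastQC 0.11.7, aligned them to GRCm39 with TopHat2 2.0.10, Bowtie 1.0.0 and SAMtools 0.1.19, counted sense reads per gene with HTSeq 0.6.1 on a GENCODE annotation and tested genotypes with a count model. The deposited table holds signal values, namely read counts divided by a size factor per library by the authors. As these are not raw counts, log2(value + 1) was modelled by limma 3.58.1 under R 4.3.3 (genotype only, eBayes variance trend, two-sided, Benjamini-Hochberg over 13236 genes with at least 5 normalized counts in at least 5 samples; 63 genes removed). Fold changes on this scale understate changes of low genes. In 8 of 10 columns, all but Rragc +/+ replicate 5 and Rragc S74N/+ replicate 3, 100% of values came out as whole reads within a tolerance of 0.1, and edgeR 4.0.16 and DESeq2 1.42.0 were run on those. Scripts were tested on simulated data.

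The labels give no replicate numbers, so mice were numbered in order of deposit and numbers pair no samples. The labels do not say that samples are separate animals beyond listing them as separate, so p-values measure the spread between these samples. The members and gene lists were chosen with earlier results of these data known. Named were all members, Cltrn, every called gene of the 2 transporter lists, and markers as counts with up to 3 abundant genes. Genes named outside this rule, among them called markers, Slc38a4, Slc38a9, Slc7a12 and Slc36a2, were named after their values were seen. Results on 1 further gene of this rule are not reported here. Alternatives were pseudocounts of 0.5 and 5, no filter, a mean of at least 50, other scalings, no variance trend, the title number range as a term, the count models, each library left out and, added after seeing the data, fits within each title range. Promoter sequences are from RefSeq (GRCm38.p6).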

Additional observations from a re-analysis of the deposited data

Results flagged for a closer look

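Values in groups of 5 were searched for a mouse far from the others by Dixon's gap criterion (gap over range above 0.71) in 21 results, that is 42 groups. There were 4 such values where chance gives about 2.1, and all 4 belonged to Rragc S74N/+ replicate 1. Slc7a9 had 92.3 normalized counts there against 284 to 342 in the other 4 mice, and Slc3a2 had 55.0 against 245 to 294. The remaining values contain the same low Slc3a2 level: Slc7a7 relative to Slc3a2 was 2.14 on the log2 scale against 0.21 to 0.66, and Slc7a8 relative to Slc3a2 was 0.65 against -1.78 to -1.42. This mouse was not among the extremes for Slc7a8 itself, at 86.7 normalized counts in a group from 74.8 to 101. Its library had 4930328 recovered reads, the most of the 4 Rragc S74N/+ libraries whose reads were recovered. Without it, Slc7a9 and Slc3a2 were still called lower (limma, adjusted p = 0.0023 and 2.56e-05).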

How the results depend on the processing

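The count of 4 transporters called lower held under 11 of 12 planned settings that kept all libraries or the 8 with recovered reads. It was 2 without the variance trend (Slc6a19 and Slc7a8), 1 within the title range under 200 (Slc6a19, 3 mice against 3, chosen after seeing the data), and 3 to 4 with a library left out, where Slc7a9 was the one lost. Over all genes, 150 were called lower without the variance trend and 34 within the title range under 200, against 341 in the main fit. The 2 calls among other plasma membrane transporters ran from 2 to 3 with a library left out, and were 3 with no filter, which added Slc38a4 as lower. The 2 lysosomal calls became 1 with a mean of at least 50, with edgeR, with DESeq2 and with limma on the same 8 libraries, 0 with equal library totals, relative to proximal tubule markers and without the variance trend, and ranged from 0 to 2 with a library left out. Changes that turned direction were all of genes that had not passed: Slc3a1 was 0.077 and Slc1a1 0.14 within the title range over 200, and Slc7a13 was -0.34 within the range under 200, -0.012 with limma on 8 libraries and -0.12 to 0.30 with a library left out. Slc7a8 relative to Slc3a2 ran from -0.11 to 0.49 and Slc7a13 relative to Slc3a1 from 0.45 to 0.65 (exact permutation, adjusted p = 0.0190 to 0.0571). The cause of these shifts was not tested. No paired analysis was possible because the labels carry no replicate numbers and mice were numbered by deposit. Depth limits genes of few reads: Slc7a12 and Slc36a2 were at 0 in at least 1 library, and their changes had standard errors of 0.66 and 1.28 on the log2 scale.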
